A study of Mus musculus with 12 samples.

Results

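Nonsense-mediated mRNA decay is the pathway by which cells degrade transcripts whose translation stops early, and 9 of its factors are described here: Upf1, Upf2, Upf3a, Upf3b, Smg1, Smg5, Smg6, Smg8 and Smg9. They were taken by gene symbol from a table of 24421 genes, where all 9 were present, and all 9 passed the filter on low counts that left 14810 genes for testing. RNA was sequenced from embryos of strain C57Bl/6 in which Eftud2, which encodes a GTPase of the U5 particle of the spliceosome, was altered in the neural crest. The control embryos carried Eftud2+/- and the mutants Eftud2-/-, so that every group carried the altered allele, and untreated embryos of each genotype were collected on embryonic day 9.0 (E9.0) or 9.5 (E9.5). This gave 4 groups of 3 libraries. The source label names neural crest cells, the tissue label cranial nerve ganglia and the protocol embryonic heads. The labels name neither the Cre driver nor the embryos that went into a library. Nothing in them says how replicates of a group were taken, so the p-values measure only the spread between these libraries. In each group 1 library differed from the others in Xist, given with Upf3b, so the libraries of a group were not all repeats of 1 sample.

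In the textbook account, the helicase Upf1 gathers on transcripts where a ribosome has stopped, and Upf2 together with Upf3a or Upf3b links it to the exon junction complex, which splicing leaves on the mRNA. The kinase Smg1, held in check by Smg8 and Smg9, then phosphorylates Upf1. Smg5 and Smg6 bind phosphorylated Upf1, and Smg6 is an endonuclease that cuts the transcript. Errors of splicing often create early stop codons, which makes such transcripts a known class of substrates. Several of the factors' own mRNAs, those of Upf1, Upf2, Upf3b, Smg1, Smg5 and Smg6 among them, have been described as targets of the pathway, so that they can rise when it slows.

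The libraries held 13914543 to 31172708 counts, and each factor was read with 193 counts (lowest library of Smg9) to 9182 counts (highest library of Smg1). The 45S ribosomal precursor Rn45s took 6.05% or more of the counts in each E9.0 library and 5.90% or less in each E9.5 library. The TMM scaling factors did not overlap either (0.664 to 1.05 against 1.09 to 1.11), and total counts overlapped only narrowly. Heterozygous E9.0 replicate 1 was the extreme, with Rn45s at 37.4% of its counts. Its TMM factor was 0.664, against 0.924 to 1.11 in the other libraries. Stage is thus confounded with ribosomal content and scaling. Their part in the stage differences was not tested beyond the alternative scalings. Levels are given as CPM, read counts scaled to a common library size after TMM correction. Eftud2 itself was measured first: 302, 275 and 279 CPM in control embryos of E9.0 against 236, 235 and 232 CPM in mutants. The E9.5 controls had 248, 255 and 264 CPM and the mutants 226, 221 and 226 CPM. Control and mutant libraries were separate at both stages, and most of the Eftud2 signal remained in the mutants. Its log2 fold change, homozygous against heterozygous, was -0.29 ± 0.05 (SE; adjusted p = 0.0193, edgeR quasi-likelihood test) at E9.0 and -0.19 ± 0.05 (adjusted p = 0.0906) at E9.5. Leaving out the library with high Rn45s gave -0.25 (adjusted p = 0.0645) for E9.0. Gm26668, a gene on the opposite strand, overlaps 26.9% of the exon length of Eftud2, and the strand setting of the counting is not given in the sources used here.

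All marker genes listed for neural crest, ganglion neurons, neural progenitors, endothelium, primitive erythroid cells and heart muscle had reads in each of the 4 groups, although the heart gene Nppa was at 0 counts in 2 of the homozygous E9.0 libraries. The 7 crest markers (Sox10 and Foxd3 among them) summed to 205 to 373 CPM and the 7 ganglion neuron markers to 67.4 to 169 CPM, against 585 to 785 CPM for the 6 neural progenitor markers and 536 to 5192 CPM for the 6 erythroid ones. The libraries are therefore described as mixed tissue. In such bulk samples, fewer cells of a type and less RNA per cell cannot be told apart.

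Divided by exon length, the factors differed in level more than any of them did between groups. Upf1 had the highest level, 35.9 ± 2.36 CPM per kb (mean ± SD over 12 libraries), which was above 92.0% of the tested genes. Smg5 followed with 17.9 ± 0.946 CPM per kb, and neither gene's range over the libraries touched its neighbour's. Below them came Smg8 with 12.9 ± 1.09, Upf2 with 11.3 ± 0.497, Smg1 with 10.4 ± 0.843 and Smg6 with 8.85 ± 0.703 CPM per kb. Upf3b with 7.08 ± 0.777, Upf3a with 5.16 ± 0.683 and Smg9 with 4.09 ± 0.507 CPM per kb were lowest. From Smg8 down, each gene's range over the libraries overlapped that of the next. Compared within the same library, Smg6 was above Upf3b and Upf3b above Upf3a in 12 of 12 libraries, and the other neighbours below Smg5 kept this order in 11 of 12. The lengths are all annotated exons of a gene joined (GENCODE M21), which lowers the value of genes with long, rarely used exons. This order therefore depends on the lengths chosen, also where it held in every library. Upf3a had 5865 bases of joined exons and Upf3b 3999, while their main transcripts have 2057 and 2344 bases. Before division by length the mean of Upf3a was the higher, 30.3 against 28.3 CPM. For Smg1 the joined exons had 23984 bases and the main transcript 15557. Over all 12 libraries the coefficient of variation of the CPM ran from 4.39% for Upf2 to 13.2% for Upf3a.

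**Figure D1:**
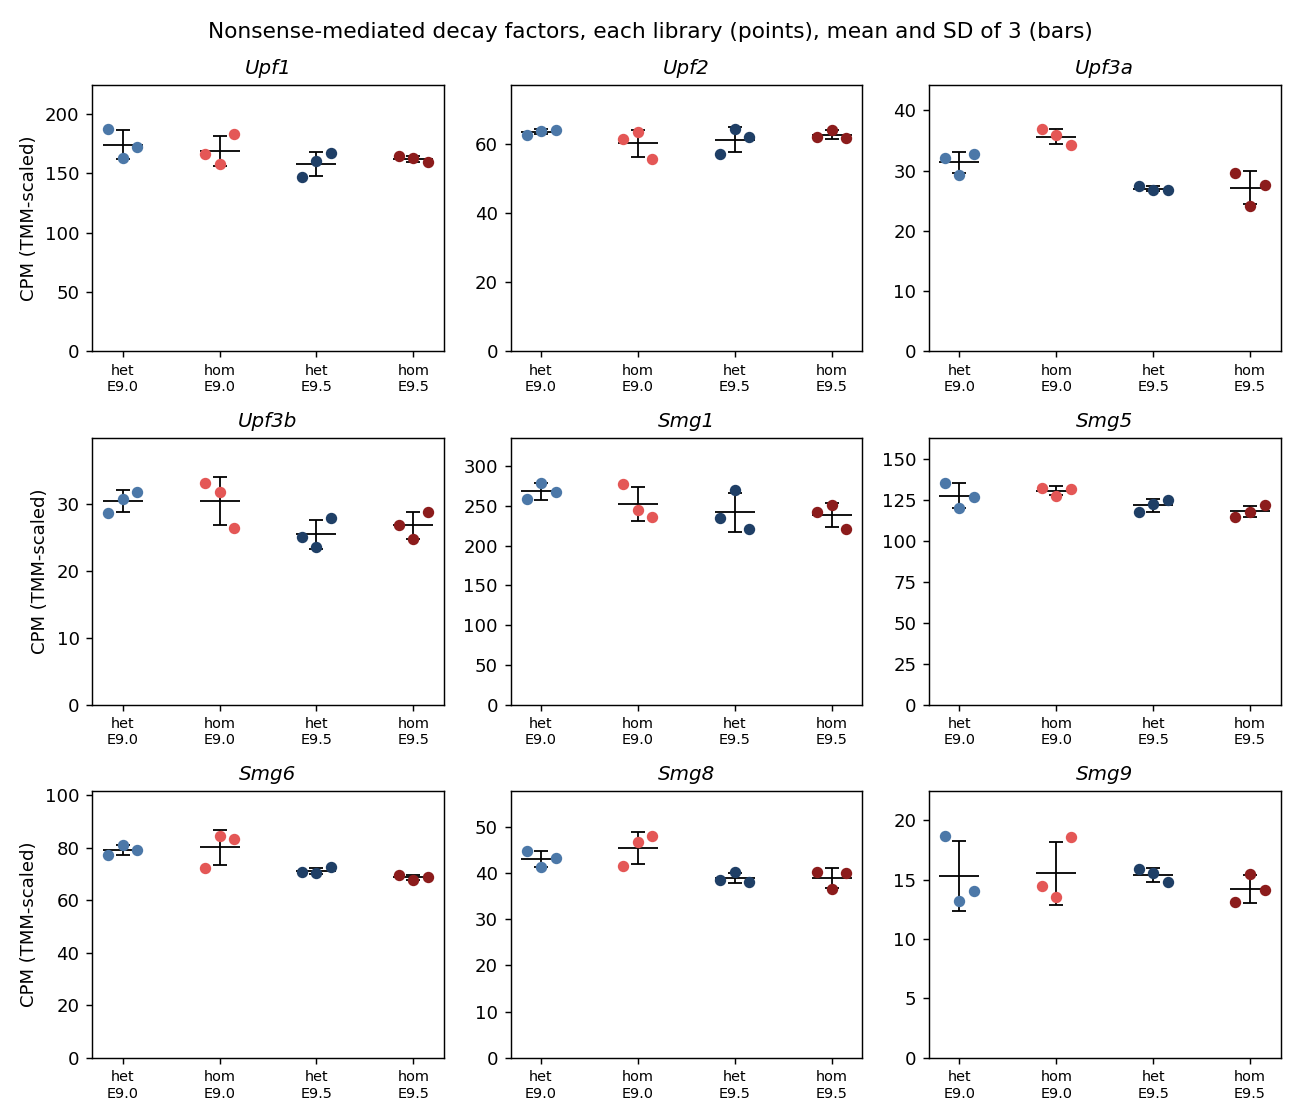
Level of each decay factor in CPM (TMM-scaled; linear axis from 0) in the 4 groups: each point is a library, and the bars give the mean and SD of 3 libraries. Within a stage, heterozygous and homozygous libraries of most factors lie among each other, while Upf3a, Smg6 and Smg8 have lower points at E9.5 than at E9.0 in both genotypes.

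The first comparison asked whether loss of Eftud2 changed the decay factors, and no such change was detected. Of the 9 factors, 0 passed an adjusted p of 0.05 at E9.0, 0 at E9.5 and 0 for the average of both stages (edgeR quasi-likelihood test). Over all tested genes 0.587%, 1.89% and 2.96% passed in these comparisons, so a count of 0 among 9 genes is near the background. These shares rest on single libraries: the E9.0 share was 0.254% without homozygous E9.0 replicate 3, and dropping replicate 2 of the heterozygous E9.0 group gave 0.259%. At E9.5 it was 1.01% without heterozygous E9.5 replicate 2 and 1.12%, 0.885% and 0.906% without homozygous E9.5 replicate 1, 2 or 3. The share for the average was 1.90% and 1.65% without the same E9.0 libraries and 1.64% without homozygous E9.5 replicate 2. DESeq2 and limma-voom likewise gave 0 in each. At an unadjusted p of 0.05 the count was 1 factor at E9.0 (Upf3a) and 0 at E9.5, where 13.3% and 13.4% of all tested genes were past it. Over all factors, the outer ends of the 95% intervals were -16.4% (Smg9) and 28.1% (Upf3a) at E9.0 and -23.3% (Smg9) and 20.6% (Upf3b) at E9.5, under this scaling. The E9.0 count was also 0 when the library with high Rn45s was dropped. Marker levels differed between genotypes at both stages. At E9.0 the crest sum was 353 to 373 CPM in heterozygous and 296 to 326 CPM in homozygous libraries, with 1 of 7 markers called lower. The endothelial sum of that stage was 259 to 277 CPM against 308 to 315 CPM, with 0 of 8 markers called. At E9.5 the endothelial sum was 168 to 236 CPM against 303 to 334 CPM, with 7 of 8 markers called higher, and the ganglion neuron sum was 144 to 169 CPM against 116 to 123 CPM, with 2 of 7 markers called lower and 3 of 7 fitted above 0 (up to 0.65 on the log2 scale; median of the list -0.09). The crest sums overlapped at E9.5 (217 to 279 against 205 to 255 CPM), while 4 of 7 crest markers were called lower. The part of these markers in the genotype comparisons was not tested.

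The core helicase Upf1 had 187, 163 and 172 CPM in heterozygous embryos of E9.0 against 167, 158 and 183 CPM in homozygous ones. The E9.5 values were 147, 160 and 167 CPM against 165, 162 and 160 CPM. The genotypes overlapped at both stages. The change was -2.88% at E9.0 (95% interval -12.4% to 7.62%) and 2.82% at E9.5 (-7.09% to 13.8%). Upf2, the adaptor that bridges Upf1 and the Upf3 proteins, was the steadiest factor. It had 62.7, 63.8 and 64.0 CPM (heterozygous E9.0), 61.4, 63.4 and 55.8 CPM (homozygous E9.0), 57.2, 64.3 and 62.2 CPM (heterozygous E9.5) and 62.1, 64.2 and 61.8 CPM (homozygous E9.5). The 4 groups overlapped each other, with a log2 fold change between genotypes of -0.08 ± 0.06 at E9.0 (adjusted p = 0.633) and 0.03 ± 0.06 at E9.5 (adjusted p = 0.893).

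The paralogs Upf3a and Upf3b, the factors that contact the exon junction complex, did not pass the test at E9.0 either. Upf3b, the stronger activator of decay in the usual account, had 28.6, 30.8 and 31.8 CPM in heterozygous and 33.2, 31.8 and 26.4 CPM in homozygous embryos, with a change of 0.00 ± 0.10 on the log2 scale. Upf3a had 32.0, 29.3 and 32.7 CPM in heterozygous and 36.8, 35.9 and 34.2 CPM in homozygous embryos. It was the only factor whose genotypes did not overlap at E9.0, where 17.3% of all tested genes did not overlap. Its mean was 31.4 ± 1.78 CPM against 35.6 ± 1.31 CPM (SD, n = 3 each), a difference of 13.7% that did not pass the test (log2 fold change 0.18 ± 0.08, unadjusted p = 0.0378, adjusted p = 0.344; exact permutation p = 0.1, the smallest that 3 libraries against 3 allow). Without heterozygous E9.0 replicate 1 the log2 fold change was 0.20 (adjusted p = 0.359). At E9.5 Upf3a had 27.5, 26.8 and 26.7 CPM in heterozygous and 29.6, 24.2 and 27.6 CPM in homozygous libraries. There the genotypes overlapped, with a log2 fold change of 0.01 ± 0.08.

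The ratio of Upf3a to Upf3b within a library, a measure chosen after the values had been seen, was compared in 4 tests. Its log2 mean was 0.04 ± 0.12 in heterozygous and 0.23 ± 0.12 in homozygous E9.0 libraries (SD, n = 3; exact permutation p = 0.2, adjusted over the 4 tests 0.4). At E9.5 it was 0.09 ± 0.13 and 0.01 ± 0.11 (exact permutation p = 0.6, adjusted 0.7). With 3 libraries against 3 this test cannot go below 0.1, so it could not have passed 0.05 and says nothing on whether the ratio changed. Upf3b lies on the X chromosome, and the libraries differed in Xist, the RNA of the inactive X: it was at 0.0614 to 0.220 CPM in 1 library of each group and at 174 to 453 CPM in the others. In those 4 libraries with little Xist, Upf3b had 28.6, 33.2, 25.1 and 24.8 CPM, the lowest value of the group in heterozygous E9.0 and homozygous E9.5 embryos, the highest in homozygous E9.0 and the middle one in heterozygous E9.5 embryos. The part of embryo sex in the Upf3b values was not tested further.

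The kinase Smg1 had 258, 279 and 268 CPM in heterozygous and 277, 245 and 236 CPM in homozygous E9.0 libraries, which overlapped (log2 fold change -0.09 ± 0.08, adjusted p = 0.671). The values of E9.5 overlapped as well, with 235, 269 and 221 CPM against 243, 251 and 221 CPM. Its inhibitor Smg8 had 44.8, 41.3 and 43.2 CPM against 41.5, 46.6 and 48.1 CPM at E9.0, and 38.5, 40.2 and 38.0 CPM against 40.3, 36.5 and 40.0 CPM at E9.5. Smg9, the partner of Smg8 and the least abundant factor, had 18.7, 13.2 and 14.1 CPM against 14.5, 13.5 and 18.6 CPM at E9.0. Its E9.5 libraries had 15.9, 15.6 and 14.8 CPM against 13.2, 15.5 and 14.1 CPM. The standard error of its genotype difference was the largest among the factors, 0.14 at E9.0 and 0.13 at E9.5 on the log2 scale. None of the kinase complex genes passed the test between genotypes.

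Smg5, which binds phosphorylated Upf1 and recruits decay enzymes, had 136, 120 and 127 CPM against 133, 128 and 132 CPM at E9.0. By E9.5 the values were 117, 123 and 125 CPM against 115, 118 and 122 CPM. The endonuclease Smg6 had 77.2, 81.0 and 79.1 CPM against 72.5, 84.6 and 83.4 CPM at E9.0. Its E9.5 values were 70.8, 70.4 and 72.5 CPM in heterozygous and 69.5, 67.8 and 69.0 CPM in homozygous libraries. Smg6 was the only factor whose genotypes did not overlap at E9.5, where 20.9% of all tested genes did not overlap. The gap was small, with a log2 fold change of -0.05 ± 0.06 (adjusted p = 0.810). The lowest adjusted p of any factor at E9.5 was 0.795, for Smg9 (log2 fold change -0.12 ± 0.13).

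**Figure D2:**
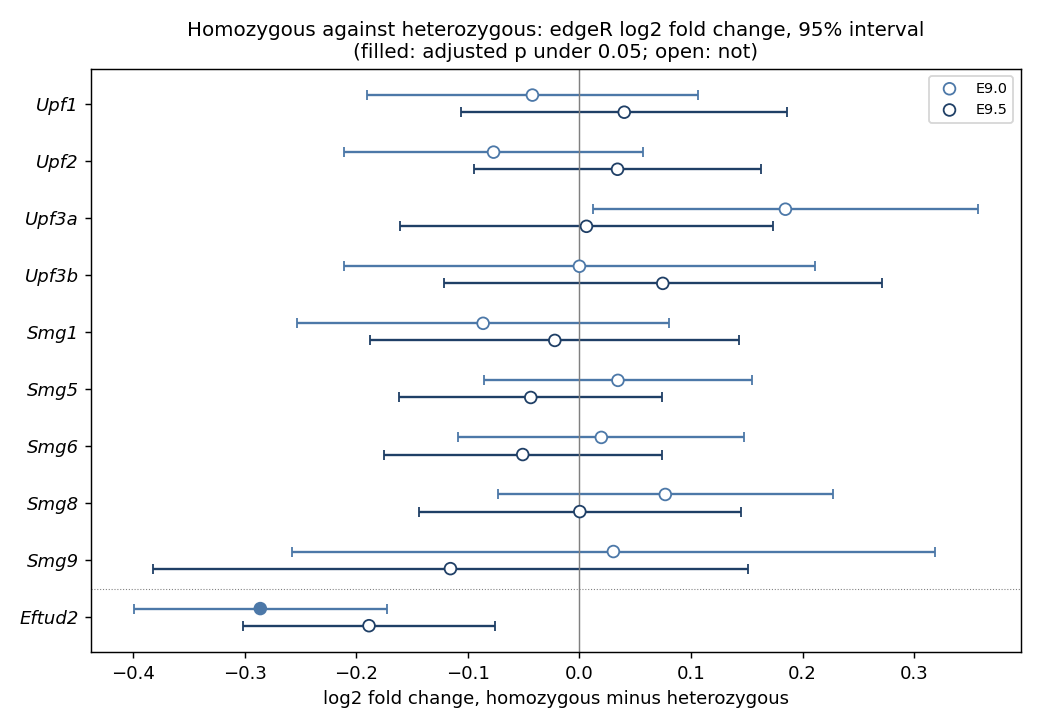
Log2 fold change between homozygous and heterozygous libraries (horizontal axis) for each decay factor and for Eftud2, at E9.0 and E9.5; points are edgeR estimates, lines their 95% intervals, and filled points pass an adjusted p of 0.05. The intervals of all factors except Upf3a at E9.0 include 0, and the only filled point is Eftud2 at E9.0.

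Whether the genotype difference itself changed with stage was tested as an interaction. Of the 9 factors 0 passed, against 0.0675% of all tested genes, and the lowest unadjusted p was 0.135 for Upf3a (log2 difference -0.18 ± 0.11, adjusted p = 0.700). The 95% interval for Upf3a ran from -0.42 to 0.06. Its estimate was -0.24 to -0.10 with a library left out and -0.38 with total counts only, and it passed under no alternative run.

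Between E9.0 and E9.5 most factors were lower under TMM scaling, while with total counts alone all 9 were higher in heterozygous embryos, as described after the values. In heterozygous embryos 2 of 9 passed the test and both fell, Upf3a and Upf3b. In homozygous embryos 3 of 9 passed and all fell, Upf3a, Smg6 and Smg8. Each genotype had 8 of 9 factors fitted below 0, with a median log2 fold change of -0.15 in both, while the median of all tested genes was 0.01 in both. The stage difference was broad: 35.2% of all genes passed in heterozygous and 35.4% in homozygous embryos, and 16.0% and 15.8% passed as lower at E9.5. The counts of 2 and 3 genes in 9 are therefore not read as particular to the factors. The libraries of the stages did not overlap, with E9.5 lower, for 4 factors in heterozygous embryos (Upf3a, Upf3b, Smg6 and Smg8) against 22.5% of all genes, and for 4 in homozygous embryos (Upf3a, Smg5, Smg6 and Smg8) against 22.1%.

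Upf3a fell from 31.4 ± 1.78 to 27.0 ± 0.398 CPM in heterozygous embryos (log2 fold change -0.22 ± 0.08, adjusted p = 0.0464). In homozygous embryos it fell from 35.6 ± 1.31 to 27.1 ± 2.77 CPM (-0.39 ± 0.08, adjusted p = 0.00125), the largest fitted change of any factor in these comparisons. Its paralog Upf3b fell from 30.4 ± 1.63 to 25.5 ± 2.17 CPM in heterozygous embryos (-0.26 ± 0.09, adjusted p = 0.0427). In homozygous embryos Upf3b went from 30.5 ± 3.59 to 26.9 ± 2.03 CPM, which did not pass (-0.18 ± 0.10, adjusted p = 0.147). It passed without homozygous E9.0 replicate 3 (-0.28, adjusted p = 0.0340, edgeR) and with GC content and length removed (-0.26, adjusted p = 0.0127), and ranged from -0.28 to -0.12 with a library left out. The log2 ratio of Upf3a to Upf3b ran from 0.15 to 0.37 at E9.0 and from -0.06 to 0.14 at E9.5 in homozygous embryos, without overlap (exact permutation p = 0.1, the smallest possible; 0.4 after adjustment over the 4 tests). In heterozygous embryos the stages overlapped (exact permutation p = 0.7).

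Smg6 fell from 80.1 ± 6.68 to 68.8 ± 0.913 CPM in homozygous embryos (-0.22 ± 0.06, adjusted p = 0.00867). In heterozygous embryos its means were 79.1 ± 1.88 and 71.3 ± 1.09 CPM, which missed the threshold (-0.15 ± 0.06, adjusted p = 0.0582) but passed with RLE size factors (adjusted p = 0.0433) and in DESeq2 (adjusted p = 0.0323). Smg8 fell from 45.4 ± 3.46 to 39.0 ± 2.09 CPM in homozygous embryos (-0.22 ± 0.07, adjusted p = 0.0200), and its heterozygous means were 43.1 ± 1.75 and 38.9 ± 1.14 CPM (-0.15 ± 0.07, adjusted p = 0.113). Smg5 missed the threshold in homozygous embryos (-0.15 ± 0.06, adjusted p = 0.0550), and passed with RLE size factors, upper-quartile factors, DESeq2 or GC content and length removed (adjusted p 0.0248 to 0.0423). Upf1, Smg1 and Smg9 did not pass in either genotype, nor did Upf2, whose log2 fold changes were -0.05 ± 0.06 and 0.06 ± 0.06. With GC content and length removed, Smg1 passed in both genotypes (-0.15 and -0.19) and Upf1 in heterozygous embryos (-0.15), and Smg1 also passed in heterozygous embryos without heterozygous E9.5 replicate 2 (-0.24, adjusted p = 0.0294). None of these stage differences was shown to depend on genotype, since the interaction gave 0 factors.

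**Figure D3:**
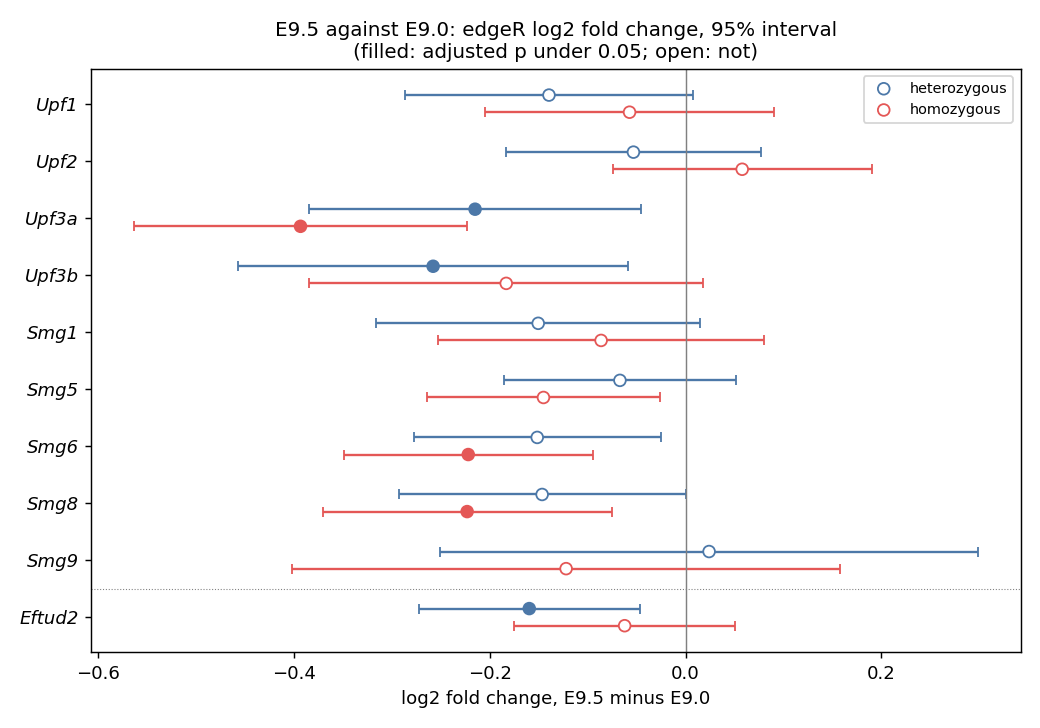
Log2 fold change between E9.5 and E9.0 (horizontal axis) for each decay factor and for Eftud2, in heterozygous and homozygous embryos; points are edgeR estimates, lines their 95% intervals, and filled points pass an adjusted p of 0.05. Under the TMM scaling used here, unlike total counts alone, most factor estimates lie left of 0, and Upf3a is filled in both genotypes.

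These falls are relative to the typical gene of the library, and the stages also differed in Rn45s share and TMM factor. Scaled by total counts alone, every factor was higher at E9.5 in heterozygous embryos (log2 fold change 0.11 for Upf3b to 0.42 for Smg9), where the median of all genes rose by 0.38. Relative to that median, Upf3a was at -0.22 and Upf3b at -0.27. In homozygous embryos the median rose by 0.18, and relative to it Upf3a was at -0.41, Smg6 at -0.24 and Smg8 at -0.24. The heterozygous calls were close to the threshold: leaving out each of the 6 libraries in turn, Upf3a passed in 1 of 6 fits (adjusted p up to 0.151) and Upf3b in 2 of 6 (up to 0.146). Without heterozygous E9.0 replicate 1, Upf3b passed (-0.30, adjusted p = 0.0381) and Upf3a did not (-0.20, adjusted p = 0.0995). In homozygous embryos Upf3a and Smg6 passed in 6 of 6 such fits and Smg8 in 3 of 6, not passing without homozygous E9.0 replicate 2 or 3 or without homozygous E9.5 replicate 2 (adjusted p up to 0.101).

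Markers of other cell types also differed between the stages. The summed erythroid markers were at 536 to 1169 CPM in the E9.0 libraries and 2784 to 5192 CPM at E9.5. The heart muscle markers were at 27.6 to 230 CPM and 1314 to 2100 CPM, and those of ganglion neurons at 67.4 to 75.3 CPM and 116 to 169 CPM, while those of migrating crest were at 296 to 373 CPM and 205 to 279 CPM. None of these 4 lists overlapped between the stages. Within a genotype the neural progenitor sums did not overlap either. They were 601 to 628 against 630 to 785 CPM in heterozygous and 585 to 648 against 657 to 713 CPM in homozygous embryos. The endothelial sums did not overlap in heterozygous embryos (259 to 277 against 168 to 236 CPM), where 5 of 8 markers were called lower. In homozygous embryos they overlapped (308 to 315 against 303 to 334 CPM), with 2 markers called higher and 1 lower. The part of these markers in the fall of the factors was not tested. Summed over the 9 factors, the level was 806 to 845 CPM at E9.0 and 734 to 793 CPM at E9.5. As a share of all counts, without scaling, the factors took 0.0561% of heterozygous E9.0 replicate 1 and 0.0755% to 0.0867% of the other libraries.

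The genes whose levels ran most like the mean of the factors over the 12 libraries were Ddx18 (Pearson r = 0.983), Bend3 (0.982), Zbtb12 (0.982), Zfp710 (0.980) and Bcas1 (0.979). The libraries of the stages stand apart in all of them, and r fell to 0.816 to 0.851 after group means were taken out. Of all tested genes 11.2% had an r above 0.8, so likeness of this kind was common.

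The promoters of the 4 factors that passed the test between stages under TMM scaling are shown, a set that other settings change. Each is the 250 bases before the transcription start in RefSeq (GRCm38.p6), on the strand of the gene, with matches to the motifs named after them in capitals.
Upf3a, chr8:13785365-13785614, plus strand: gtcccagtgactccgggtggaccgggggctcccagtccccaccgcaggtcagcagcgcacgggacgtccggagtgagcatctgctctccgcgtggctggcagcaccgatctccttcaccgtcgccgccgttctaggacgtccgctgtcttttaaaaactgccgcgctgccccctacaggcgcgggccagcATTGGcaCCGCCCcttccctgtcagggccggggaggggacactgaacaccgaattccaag
Upf3b, chrX:37110323-37110572, minus strand: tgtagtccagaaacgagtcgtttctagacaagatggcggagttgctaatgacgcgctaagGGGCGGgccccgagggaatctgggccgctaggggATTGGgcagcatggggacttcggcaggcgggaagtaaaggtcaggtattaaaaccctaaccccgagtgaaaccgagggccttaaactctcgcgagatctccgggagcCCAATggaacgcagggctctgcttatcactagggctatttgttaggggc
Smg6, chr11:74925604-74925853, plus strand: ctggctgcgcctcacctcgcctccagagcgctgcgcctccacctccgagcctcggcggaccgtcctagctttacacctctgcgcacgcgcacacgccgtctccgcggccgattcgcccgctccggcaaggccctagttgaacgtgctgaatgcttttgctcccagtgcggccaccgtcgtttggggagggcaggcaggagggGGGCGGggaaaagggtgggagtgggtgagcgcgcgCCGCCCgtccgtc
Smg8, chr11:87086778-87087027, minus strand: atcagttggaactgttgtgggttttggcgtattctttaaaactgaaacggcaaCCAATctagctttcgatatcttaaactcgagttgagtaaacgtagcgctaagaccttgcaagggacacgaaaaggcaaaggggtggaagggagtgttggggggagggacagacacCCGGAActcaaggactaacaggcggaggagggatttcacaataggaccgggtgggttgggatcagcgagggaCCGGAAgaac
The motifs searched on both strands were the GC box GGGCGG, the ETS site CCGGAA, the CCAAT box, the E-box CACGTG, an NRF1-type site GCGCATGC, the cyclic AMP response element TGACGTCA and the TATA box TATAAA. Upf3a and Upf3b each held 1 GC box, with 1 CCAAT in Upf3a and 2 in Upf3b. Smg6 held 2 GC boxes, and Smg8 held no GC box, 1 CCAAT and 2 ETS sites. No motif was common to these 4 windows. Among all 9 factors 7 promoters held a GC box, against 32.9% of 27025 RefSeq promoters. Those promoters were not limited to the tested genes and not matched to the factors in GC content, so the share is not read as particular to the factors. CCAAT was in 4 (34.5% of all promoters), the ETS site in 2 (12.2%), the NRF1-type site in 1 (2.32%), and the E-box (6.05%), the cyclic AMP response element (1.62%) and the TATA box (13.0%) in 0. The GC content was 67.2% for Upf3a, 56.8% for Upf3b, 70.4% for Smg6 and 50.8% for Smg8, against a median of 52.0%. These matches are descriptions of the letters and not of binding.

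Features that are known to draw the decay pathway to a transcript were read from the main transcript of each factor in GENCODE M21 (GRCm38). A long 3′ untranslated region is such a feature, and that of Smg1 was 4233 bases, a length reached by 5.79% of 13604 tested genes with such a transcript (median 984 bases). Smg6 had 1498, Upf2 1261 and Smg5 1230 bases, all above the median, while Upf1 (958), Upf3b (834), Upf3a (719), Smg9 (400) and Smg8 (221) were below it. An upstream start codon, another such feature, was present in 4 of 9 factors (Upf2, Smg1, Smg5 and Smg9) against 50.6% of the genes. Upf1 was the only factor with an exon junction after its stop codon, as in 3.85% of the genes, but that junction lies 3 bases behind the stop, too close to count as a decay feature in the usual account. By position, the genes lie at chr8:70331525-70353278 (Upf1, minus strand), chr2:5951469-6056703 (Upf2, plus), chr8:13785615-13799193 (Upf3a, plus), chrX:37091678-37110322 (Upf3b, minus) and chr7:118131308-118243637 (Smg1, minus). The others lie at chr3:88336260-88362338 (Smg5, plus), chr11:74925823-75164448 (Smg6, plus), chr11:87077732-87086774 (Smg8, minus) and chr7:24399619-24422778 (Smg9, plus). Of the exon length of Smg6, the opposite-strand genes Srr and Gm12333 overlap 1.49% and 1.38%, as Cers1 and Gdf1 do 1.47% and 1.36% of that of Upf1, and no overlapping gene was found for the other 7.

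The partners of the factors were compared in 3 lists written with earlier results of these data known. Among 10 decay factor partners 0 passed between genotypes at either stage. Their medians were 0.01 (E9.0) and -0.03 (E9.5) on the log2 scale against 0.00 for all genes at both stages. The widest members were Pnrc2, an adaptor between Upf1 and decapping (-0.18 ± 0.09 at E9.0, adjusted p = 0.393), Ruvbl1, an ATPase that works with Smg1 (0.12 ± 0.07 at E9.0, adjusted p = 0.457), and Mov10, an RNA helicase that binds Upf1 (0.31 ± 0.12 at E9.5, adjusted p = 0.231). Of the 13 genes of the exon junction and cap-binding complexes 11 were in the table and tested, and 0 passed at either stage. Their medians were 0.14 and 0.01. At E9.0, 9 of 11 were fitted above 0, against 7263 of all 14810 tested genes. With total counts only all 11 were, of which 2 lay below the median of all genes. An unadjusted p under 0.05 (edgeR) was found for 5 of 11 at E9.0, against 13.3% of all tested genes. These were Eif4a3 (0.20 ± 0.06, adjusted p = 0.171), Ncbp2 (0.21 ± 0.07, adjusted p = 0.233), Rbm8a (0.14 ± 0.06, adjusted p = 0.352), Magohb and Casc3. The largest rise and fall at E9.0 were Magohb, a copy of a core junction subunit (0.24 ± 0.11, adjusted p = 0.369), and Casc3, another core subunit (-0.14 ± 0.06, adjusted p = 0.374). A processed pseudogene on the same strand overlaps 30.2% of the exon length of Magohb and an antisense gene 11.5% of that of Casc3, so their counts are uncertain. At E9.5 they were Ncbp2, the small cap-binding subunit, 5.68% of whose exon length lies under Senp5 on the opposite strand (0.07 ± 0.07, adjusted p = 0.753), and the junction protein Rnps1 (-0.28 ± 0.15, adjusted p = 0.486).

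Among 16 genes of general mRNA degradation 0 passed between genotypes at either stage, with medians of -0.04 and -0.01. At E9.0, 14 of 16 were fitted below 0 under TMM scaling, against 7547 of all 14810 tested genes. With total counts only 14 of 16 were fitted above 0, and with total counts without Rn45s 7 of 16. Under both of these scalings 14 of 16 lay below the median of all genes. Of the 16, 5 did not overlap and were lower in homozygous libraries, against 1215 of the 14810. An unadjusted p under 0.05 (edgeR) was found for 4, against 13.3% of all tested genes. At E9.5 that count was 1, against 13.4%. The exonuclease Xrn1, which digests the fragments that decay leaves, had 42.1, 47.5 and 41.8 CPM in heterozygous and 40.7, 33.5 and 28.1 CPM in homozygous E9.0 libraries. These did not overlap, and the difference did not pass (-0.36 ± 0.11, adjusted p = 0.189). The other extremes were the decapping cofactor Dcp1b (0.06 ± 0.15 at E9.0, adjusted p = 0.901), the helicase Ddx6 (0.08 ± 0.06 at E9.5, adjusted p = 0.671) and Wdr61, a subunit of the Ski complex (-0.19 ± 0.06 at E9.5, adjusted p = 0.151). Dnaja4, on the opposite strand, overlaps 33.9% of the exon length of Wdr61, and an antisense gene 3.25% of that of Xrn1, so these counts may be shared.

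Another list held 20 transcripts described elsewhere as targets of the pathway, of which 17 were in the table and tested. At E9.0 1 of 17 rose in homozygous embryos and 0 fell, at E9.5 0 rose and 1 fell, and for the average of both stages 2 rose and 1 fell, against 0.587%, 1.89% and 2.96% of all tested genes called in either direction. Their medians were 0.09 and -0.05 at the 2 stages. An unadjusted p under 0.05 (edgeR) was found for 4 of 17 at E9.0 and 6 of 17 at E9.5, against 13.3% and 13.4% of all tested genes. Upp1, the uridine phosphorylase mRNA, was at 6.72 ± 0.449 CPM in heterozygous and 10.9 ± 0.875 CPM in homozygous embryos of E9.0 (SD, n = 3). The E9.5 libraries had 3.96, 3.99 and 3.76 CPM against 6.34, 6.42 and 4.31 CPM. The genotypes did not overlap at either stage, and the log2 fold change was 0.71 ± 0.15 at E9.0 (adjusted p = 0.0363), 0.55 ± 0.15 at E9.5 (adjusted p = 0.0711) and 0.63 ± 0.10 on average (adjusted p = 0.00289). No fit without any 1 of the 6 libraries kept the E9.0 call (adjusted p 0.0668 to 0.163).

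Atf3, a stress-response transcription factor that other pathways induce as well, rose on average over the stages (0.42 ± 0.10, adjusted p = 0.0422). Its means were 4.58 ± 0.577 against 6.32 ± 0.687 CPM at E9.0, and 4.84 ± 0.353 against 6.27 ± 0.892 CPM at E9.5. The genotypes did not overlap at either stage, and neither stage passed on its own. The average call was lost in 9 of the 12 fits that dropped a library (adjusted p up to 0.113). Nat9, which encodes an acetyltransferase, went the other way. It had 8.44, 7.78 and 7.83 CPM against 5.86, 6.99 and 6.55 CPM at E9.0, and 9.88, 10.1 and 9.27 CPM against 6.78, 5.86 and 7.39 CPM at E9.5. It fell at E9.5 (-0.55 ± 0.11, adjusted p = 0.0154) and on average (-0.43 ± 0.08, adjusted p = 0.00940). The E9.5 call was lost without heterozygous E9.5 replicate 2 (adjusted p = 0.0567) or without homozygous E9.5 replicate 2 (adjusted p = 0.101). Arc, a neuronal gene, had the highest estimate at E9.5 (0.75 ± 0.28, adjusted p = 0.240) at 0.440 to 1.25 CPM. The list therefore held members called in both directions.

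**Figure D4:**
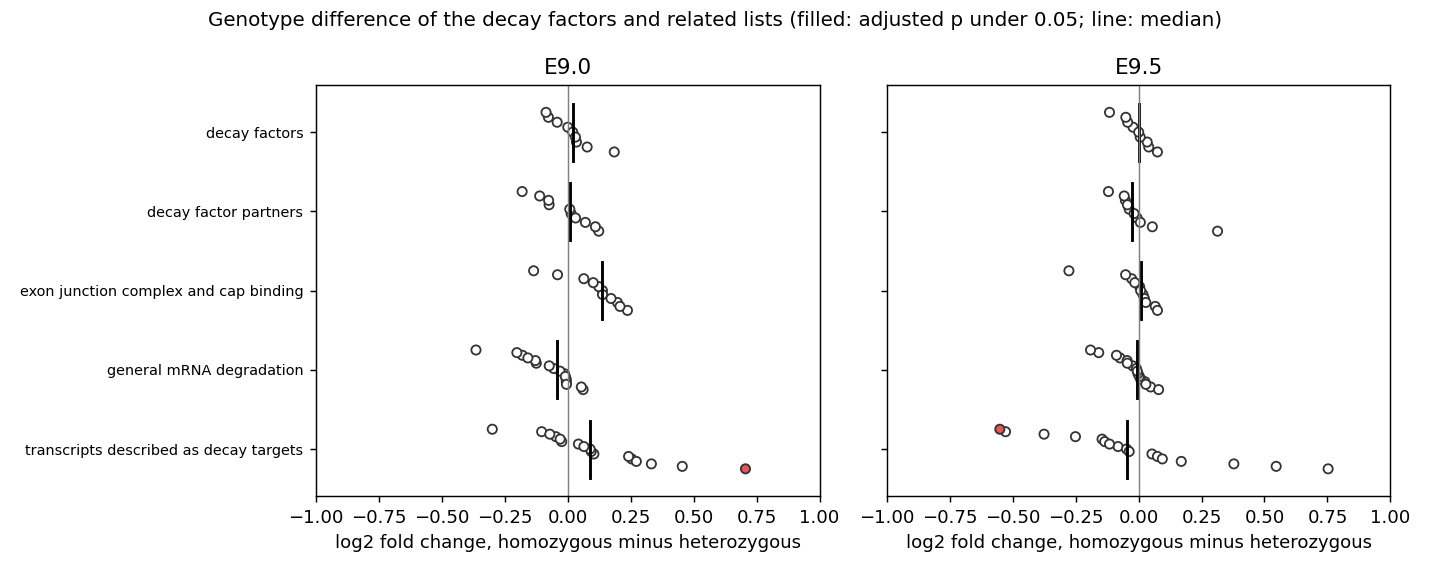
Log2 fold change between homozygous and heterozygous libraries (horizontal axis) for the 9 decay factors and the members of 4 related lists, at E9.0 and E9.5; each point is a gene, filled where the adjusted p is under 0.05, and the vertical bars are the medians. The factors lie close to 0, and the filled points are Upp1 at E9.0 and Nat9 at E9.5, both among the described decay targets.

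Between stages the related lists, under the same TMM scaling, held more lower than higher calls. At E9.5, 6 of 10 partners were lower and 1 higher in heterozygous embryos, and 5 lower and 1 higher in homozygous ones. Of the 11 junction and cap-binding genes 5 and 6 were lower and 0 higher. Of the 16 degradation genes 8 were lower and 1 higher in heterozygous embryos, and 6 lower and 0 higher in homozygous ones. Of the 17 described targets 7 and 11 were lower and 2 higher in each genotype. The counts stand against 16.0% and 15.8% of all genes called lower, and 2840 and 2896 of 14810 called higher. In heterozygous embryos the counts turn with the scaling. By total counts alone, all 10 partners were fitted above 0 (log2 fold change 0.08 to 1.17). So were all 11 junction and cap-binding genes (0.11 to 0.45), 13 of 16 degradation genes and 11 of 17 targets. Called higher were 3 partners, 2 junction and cap-binding genes, 2 degradation genes and 5 targets. Called lower were 1 target and 0 genes of the other lists. Of all 14810 genes, 6725 were then called higher and 1.72% lower. In homozygous embryos 5 of 10, 3 of 11, 9 of 16 and 6 of 17 were then fitted above 0. The targets still held more lower calls (5) than higher ones (2), while the other lists had 0 called lower and 1 partner was called higher. With total counts without Rn45s, 9 targets were called lower and 2 higher there. Of the junction and cap-binding genes 4 were lower and 0 higher, of the degradation genes 3 and 1, and of the partners 3 and 3. The share of all genes called lower was 10.9%. In heterozygous embryos this scaling gave 5 targets lower and 4 higher, and 1 partner in each direction. There 1 junction and cap-binding gene was lower and 0 higher, and 5 degradation genes lower and 1 higher. Of all genes 9.01% were lower. Relative to the median of all genes under that scaling, 7 of 10 partners, 8 of 11 junction and cap-binding genes, 15 of 16 degradation genes and 11 of 17 targets were lower in heterozygous embryos.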

How the data were processed

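The authors deposited raw counts per gene symbol for 12 libraries. Per the submitters' processing notes the tools were cutadapt, MultiQC, STAR and featureCounts with build mm10. Versions, annotation and strand setting are not given in the sources used here. Counts were analysed with edgeR 4.0.16 (R 4.3.3): filterByExpr by group kept 14810 of 24421 genes, libraries were scaled by TMM, and 1 quasi-likelihood fit with robust dispersions covered all 4 groups (common biological coefficient of variation 8.77%). Tests were two-sided with Benjamini-Hochberg adjustment over all tested genes and a threshold of 0.05. Standard errors were obtained as the ratio of the log2 estimate to the root of its F statistic. The same steps were tested on simulated counts. DESeq2 1.42.0, limma-voom (limma 3.58.1), other scalings, filters and left-out libraries were alternatives.

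Replicate numbers were not treated as pairs, since the labels name no pairing. Of 18 same-number pairs, 1 had correlated deviations above 0.1, a count that cannot exclude a pairing with 3 libraries a group. Exon lengths, positions and overlaps came from GENCODE M21 (GRCm38, the build mm10), where 23384 symbols matched directly, 686 by synonym and 351 not at all. The factors, lists and tests were chosen with earlier results of these data known. Genes named are all factors, Eftud2, list members that passed between genotypes, and each list's largest rise and fall at each stage. Eif4a3 and Rbm8a were named in addition, for their unadjusted p at E9.0. The 5 genes most like the factors were named by Pearson correlation of log2 CPM (prior count 2). Pym1, Ncbp3, Snhg15, Zfas1 and Epb41l4aos were listed but not analysed here.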

Additional observations from a re-analysis of the deposited data

How the results depend on the processing

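No factor passed between genotypes, on average or in the interaction under any alternative run. The counts of factors past the threshold between stages did move. In heterozygous embryos (2 factors) the count was 3 with RLE size factors, 3 with DESeq2, 1 with upper-quartile factors, 1 with total counts only (Smg9, higher), 0 with total counts without Rn45s, 0 with no filter, 0 at an adjusted p of 0.01, 4 after GC content and length were removed and 0 to 1 with a library left out. In homozygous embryos (3 factors) it was 4 with RLE size factors, upper-quartile factors or DESeq2, 2 with no filter, 2 at an adjusted p of 0.01, 0 with total counts only, 1 with total counts without Rn45s and 6 after GC content and length were removed. Of all genes, 19.7% (heterozygous) and 20.5% (homozygous) were called lower with GC content and length removed, 17.2% and 17.0% with RLE size factors, 14.99% and 16.73% in the upper-quartile fit, 1.72% and 2.89% with total counts only, and 9.01% and 10.9% with total counts without Rn45s. The shares were 8.34% and 8.44% with no filter and 10.96% and 10.63% with DESeq2, both of 22840 genes. The default filter of DESeq2 can leave genes with low counts without an adjusted p, so these shares are not directly comparable. The replicate block, on numbers that the labels do not describe as pairs, gave 1 factor in heterozygous and 3 in homozygous embryos and 0 in each genotype comparison. The cause of these moves was not tested, apart from the shift of all genes given above for total counts.

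Signs turned for estimates near 0 or with that shift (log2 fold changes, none of the turned values past the threshold). With total counts only, E9.0 genotype values were 0.16 (Upf1), 0.12 (Upf2) and 0.10 (Smg1), against a median of all genes of 0.19, and E9.5 values -0.0012 (Upf3a) and -0.0064 (Smg8). Heterozygous stage values were 0.24 (Upf1), 0.32 (Upf2), 0.16 (Upf3a), 0.11 (Upf3b), 0.21 (Smg1), 0.31 (Smg5), 0.22 (Smg6) and 0.23 (Smg8), and homozygous ones 0.12 (Upf1), 0.084 (Smg1), 0.026 (Smg5) and 0.054 (Smg9). Total counts without Rn45s gave -0.0032 (Smg8, E9.5 genotype), 0.045 (Upf2) and 0.033 (Smg5) for the heterozygous and 0.012 (Upf1) for the homozygous stage difference. Upf3b at E9.0 was -0.0019 with DESeq2, -0.011 with limma-voom and -0.019 with no filter, where Smg6 was -0.00065. At E9.5 limma-voom gave -0.0010 (Upf3a) and -0.0023 (Smg8), no filter -0.0010 (Smg8) and the replicate block -0.00025 (Smg8). With GC content and length removed, Smg1 was 0.040 and Smg9 -0.015 at E9.0, Upf3a -0.0053 and Smg8 -0.0045 at E9.5, and the stage values of Smg9 (heterozygous) and Upf2 (homozygous) were both -0.013.

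Leaving out a library turned the sign of these genotype values at E9.0: Upf1 ranged from -0.10 to 0.010, Upf3b from -0.066 to 0.092, Smg5 from -0.0095 to 0.078, Smg6 from -0.022 to 0.084 and Smg9 from -0.12 to 0.18. At E9.5 Upf1 ranged from -0.0084 to 0.086, Upf2 from -0.010 to 0.074, Upf3a from -0.058 to 0.088, Smg1 from -0.079 to 0.066 and Smg8 from -0.021 to 0.048. For the stage difference Smg9 ranged from -0.071 to 0.18 (heterozygous) and from -0.21 to 0.027 (homozygous), and Upf1 from -0.10 to 0.0032 (homozygous). Over all genes, the calls numbered 87 at E9.0 and 280 at E9.5 of 14810 genes. DESeq2, run without that filter but with its own default filter on low counts, gave 229 and 438 calls among 22840 genes. EdgeR with no filter gave 115 and 365 of the same number. Smg9 had the fewest counts of the factors, from 193 in a library.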

Other observations

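Among the partners of the factors, Mov10, a helicase that binds Upf1, was chosen after its values had been seen because it rose between stages. It went from 7.97 ± 0.063 to 13.9 ± 2.91 CPM in heterozygous and from 8.37 ± 0.416 to 17.3 ± 0.203 CPM in homozygous embryos (SD, n = 3; log2 fold change 0.80 ± 0.13 and 1.04 ± 0.13, edgeR adjusted p = 0.000169 and 1.45e-05). Scaled by total counts only, the log2 fold change of Mov10 was 1.17 and 1.21.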
